A study of Mus musculus with 21 samples.

Results

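Agt, which encodes angiotensinogen, the precursor of the angiotensin peptides, was examined across mouse colon libraries together with 6 genes that act on those peptides: Ace, Agtr1a, Enpep, Anpep, Mme and Lnpep. These 7 genes were picked by name from 24062 in the count table, and Agt was selected on measured values, for its higher level in normal colon of knock-ins than of wild-types. Its values in any comparison that includes normal colon are therefore given as a description, with no test. All 7 were counted in the table and all 7 passed the filter on low counts that left 15936 genes. They passed on their counts over all 21 libraries, and for Agtr1a the groups of normal colon carried it past the filter.

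The libraries were made from C57BL/6 mouse colon, with 3 libraries in each of 7 groups, and they held between 3414123 and 26174008 counts. Males gave 4 groups: wild-type normal, wild-type tumour, App NL-G-F knock-in normal and App NL-G-F knock-in tumour. Females gave wild-type normal, wild-type tumour and App NL-G-F knock-in normal libraries, and no tumour library of knock-in females was analysed here. The tumour groups are labelled AOM/DSS, the carcinogen azoxymethane followed by the colitis agent dextran sulfate sodium, and the normal groups are labelled as untreated. As labelled, a tumour against normal difference here cannot be told apart from an effect of the treatment itself. The series' design text also speaks of normal tissue next to tumours, and which holds for each library was not settled. App NL-G-F mice carry disease-linked mutations in the endogenous App gene, so App is altered in every tissue that expresses it, and the colon is not a model of neurons. Ages and pools of animals are not given in the sources used here. Nothing states that the libraries of a group came from separate mice, so p-values measure only the spread between these libraries. A pair of knock-in female normal libraries bear the same name in the count table and are called a and b here, beside replicate 1.

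In the circulation, renin cuts angiotensinogen to angiotensin I, and angiotensin-converting enzyme (Ace) trims that to angiotensin II, which raises blood pressure through the receptor that Agtr1a encodes. Glutamyl aminopeptidase (Enpep) and alanyl aminopeptidase (Anpep) then shorten angiotensin II stepwise from its amino end. Neprilysin (Mme) cuts angiotensin I and also degrades amyloid beta, the fragment of App whose production the knock-in mutations alter. Lnpep, insulin-regulated aminopeptidase, binds and is inhibited by a short end product of the pathway. In the gut, Enpep, Anpep and Ace sit on the brush border of absorptive cells, and Anpep and Mme also mark stromal and blood cells.

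The RefSeq promoter table matched 6 of the 7 genes, all but Agtr1a, with 9 start sites. Promoters of 2 genes are shown: Agt, the precursor that was selected for its genotype difference, and Ace, the converting enzyme, at the first of its 2 start sites. Each run is the 250 bases before the RefSeq start site in GRCm38.p6, 5′ to 3′, with capitals for TATAAA read on either strand. Agt lies on the minus strand and its run covers chr8:124569707-124569956. The Ace run, on the plus strand, covers chr11:105967698-105967947.
Agt: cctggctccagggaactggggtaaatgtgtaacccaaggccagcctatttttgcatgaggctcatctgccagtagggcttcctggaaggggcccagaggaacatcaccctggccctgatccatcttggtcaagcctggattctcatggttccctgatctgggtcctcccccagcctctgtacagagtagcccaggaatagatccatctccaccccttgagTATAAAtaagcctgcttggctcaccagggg
Ace: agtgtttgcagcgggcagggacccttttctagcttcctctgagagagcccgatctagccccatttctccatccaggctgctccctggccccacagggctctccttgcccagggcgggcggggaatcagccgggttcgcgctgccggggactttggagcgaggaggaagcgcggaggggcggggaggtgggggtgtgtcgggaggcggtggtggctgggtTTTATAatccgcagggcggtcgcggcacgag
The match began 30 bases before the start site in Agt and 31 bases before it in Ace, where it was read on the opposite strand. TATAAA occurred on either strand in 12.4% of 32851 promoter runs of this length. Enpep also held 1 match, whereas Lnpep, Anpep, the second Ace start site and the 3 Mme runs held none. The Lnpep and Anpep runs were GC-rich, at 70.0% and 72.8% against a median of 52.4% over all runs, and the Ace run shown stood at 67.2%. CCAAT, searched on both strands, occurred in 33.9% of all runs and was found in the runs of Enpep, of the second Ace start site and of 2 of the 3 Mme start sites. A match describes these letters only.

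In the GENCODE annotation of GRCm38, Agt is a gene on chromosome 8 (124556534-124569706) and Ace is on chromosome 11 (105967945-105989964). Agtr1a lies on chromosome 13 (30336441-30382867), Anpep on chromosome 7 (79821803-79861059) and Lnpep on chromosome 17 (17521410-17625050). Enpep and Mme are both on chromosome 3, at 129269175-129332720 and 63241537-63386030. Exons of 6 of the 7 genes overlapped no other annotated gene. Ace overlapped the antisense gene Gm11651, and since no source used here states whether counting used strand, reads of the pair cannot be told apart. Of all 50-base stretches of the longest Agtr1a transcript, 1.53% also occurred in Agtr1b, so a few of its reads could be placed in either gene. Agt, Enpep, Anpep and Lnpep shared no stretch of that length with a transcript of another gene.

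Levels below are in CPM, the share of a library's counts on sizes scaled by the trimmed mean of M values (TMM). Per kilobase of the longest transcript, Lnpep had the highest level in wild-type male normal colon (19.5 CPM per kb) and Ace the next (13.9 CPM per kb). Anpep (6.44 CPM per kb) and Agt (5.82 CPM per kb) lay in the middle. Enpep stood at 2.31, Agtr1a at 1.44 and Mme at 0.335 CPM per kb, so the receptor and neprilysin were the rarest transcripts of the 7.

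Agt was high in every App knock-in group and low in every wild-type group. Its level in knock-in female normal colon was 68.5 CPM in replicate 1, 93.9 CPM in replicate a and 56.1 CPM in replicate b. The knock-in male normal replicates 1 to 3 had 46.6, 32.3 and 76.9 CPM. Their tumour counterparts had 29.1, 24.8 and 23.8 CPM. Knock-in tumours thus lay below every knock-in normal library and above every wild-type library of either tissue. Wild-type male normal replicates had 7.55, 11.1 and 14.3 CPM, and wild-type male tumours had 7.70, 9.02 and 7.82 CPM. The wild-type female normal replicates had 8.74, 6.41 and 6.03 CPM, and wild-type female tumours had 13.7, 13.1 and 10.4 CPM. Among the wild-type groups, neighbours in this order overlapped in every case, as did the 2 knock-in normal groups at the top.

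**Figure D1:**
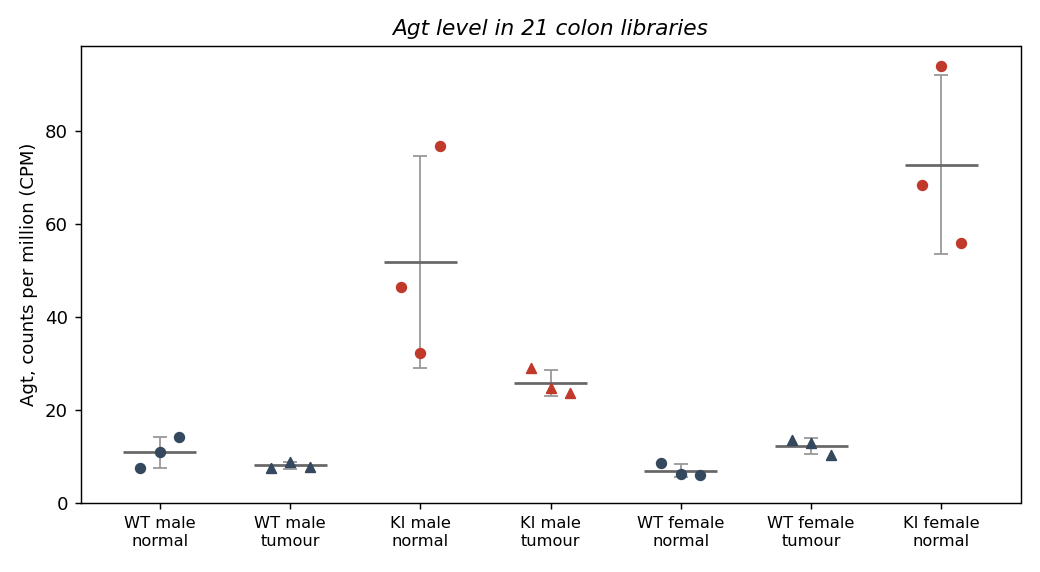
Agt level in CPM (vertical axis) in each of 21 libraries, by group. Points are libraries (circles normal, triangles tumour, red knock-in (KI), blue-grey wild-type (WT)), horizontal lines are means and bars are SDs over 3. All 9 knock-in libraries lie at 23.8 CPM or above, and all 12 wild-type libraries at 14.3 CPM or below.

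Male tumours gave a comparison of Agt between genotypes whose groups hold none of the normal colon libraries on which the gene was selected. The SE and p-value still rest on a fit of all libraries, normal colon included. Agt was also chosen with earlier results of these data known, so the comparison is not an independent test of the selected gene. Agt was 25.9 ± 2.84 CPM in knock-in and 8.18 ± 0.727 CPM in wild-type male tumours (mean ± SD, n = 3 each). The knock-in tumours were 3.21-fold higher, or 1.68 on the log2 scale (SE 0.292, edgeR quasi-likelihood test with Benjamini-Hochberg adjustment over all tested genes, adjusted p = 0.0041). All 3 knock-in tumours exceeded all 3 wild-type tumours, and the difference stayed past the threshold of 0.05 in all 17 alternatives run, with log2 fold changes from 1.55 to 1.89. In the authors' deposited table, which was made with DESeq2 per the submitters' processing notes, Agt has a log2 fold change of 1.66 and an adjusted p of 8.03e-06 for the same pair of groups. The labels do not say whether tumour and normal libraries came from the same mice.

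As a description, mean Agt was 51.9 ± 22.8 CPM in knock-in and 11.01 ± 3.38 CPM in wild-type male normal colon (SD, n = 3 each), a fitted 4.76-fold difference. In females it was 72.8 ± 19.3 CPM against 7.06 ± 1.47 CPM (SD, n = 3 each), a fitted 10.1-fold difference. Tumours of knock-in males had a fitted log2 difference of -1.001 from their normal tissue, and -0.60 without knock-in male normal replicate 3, the highest male library. The same difference was -0.43 in wild-type males and 0.78 in wild-type females. In wild-type tumours the level in females was above that in males in all libraries, but the difference missed the threshold (0.62 in log2 units, 95% interval -0.01 to 1.25, edgeR adjusted p = 0.245).

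Fat and liver are known sources of Agt. The summed level of 6 adipocyte markers was 0.383 to 1.91 CPM in knock-in female normal colon, where Agt was highest and Adipoq and Plin1 had 0 counts, and 0.619 to 3.08 CPM in wild-type females. In male normal colon it was 0.696 to 12.98 CPM in knock-ins and 0.994 to 11.3 CPM in wild-types. The sum of 6 hepatocyte markers was 25.0 to 37.7 CPM in knock-in and 34.3 to 35.8 CPM in wild-type female normal colon, and Fgb had 0 counts in every library. In male tumours the hepatocyte sum was 13.2 to 73.0 CPM in knock-ins and 29.4 to 50.6 CPM in wild-types, and the adipocyte sum was at most 2.04 CPM. The part of these cells in the Agt difference was not tested.

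Over the 21 libraries, the genes whose log2 CPM most resembled that of Agt were Dbp (Pearson r = 0.87), Tef (0.87) and Nr1d2 (0.84), transcription factors known from the circadian clock. Syt3, a synaptotagmin, came next at 0.81, and Ust, a sulfotransferase, at 0.80. The ranking covered 13657 genes, and the libraries share genotype and tissue, so these values describe a likeness and are not tested. Mean Dbp was 49.5 CPM in knock-in and 1.75 CPM in wild-type female normal colon, and 22.4 against 3.86 CPM in male normal colon. In male tumours mean Dbp was 9.41 ± 3.99 CPM in knock-ins and 3.96 ± 0.856 CPM in wild-types (SD, n = 3 each). Dbp was named because it resembled Agt most, so these means restate that likeness. The hour of tissue collection is not given in the sources used here, and the part of Dbp in the Agt difference was not tested.

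**Figure D2:**
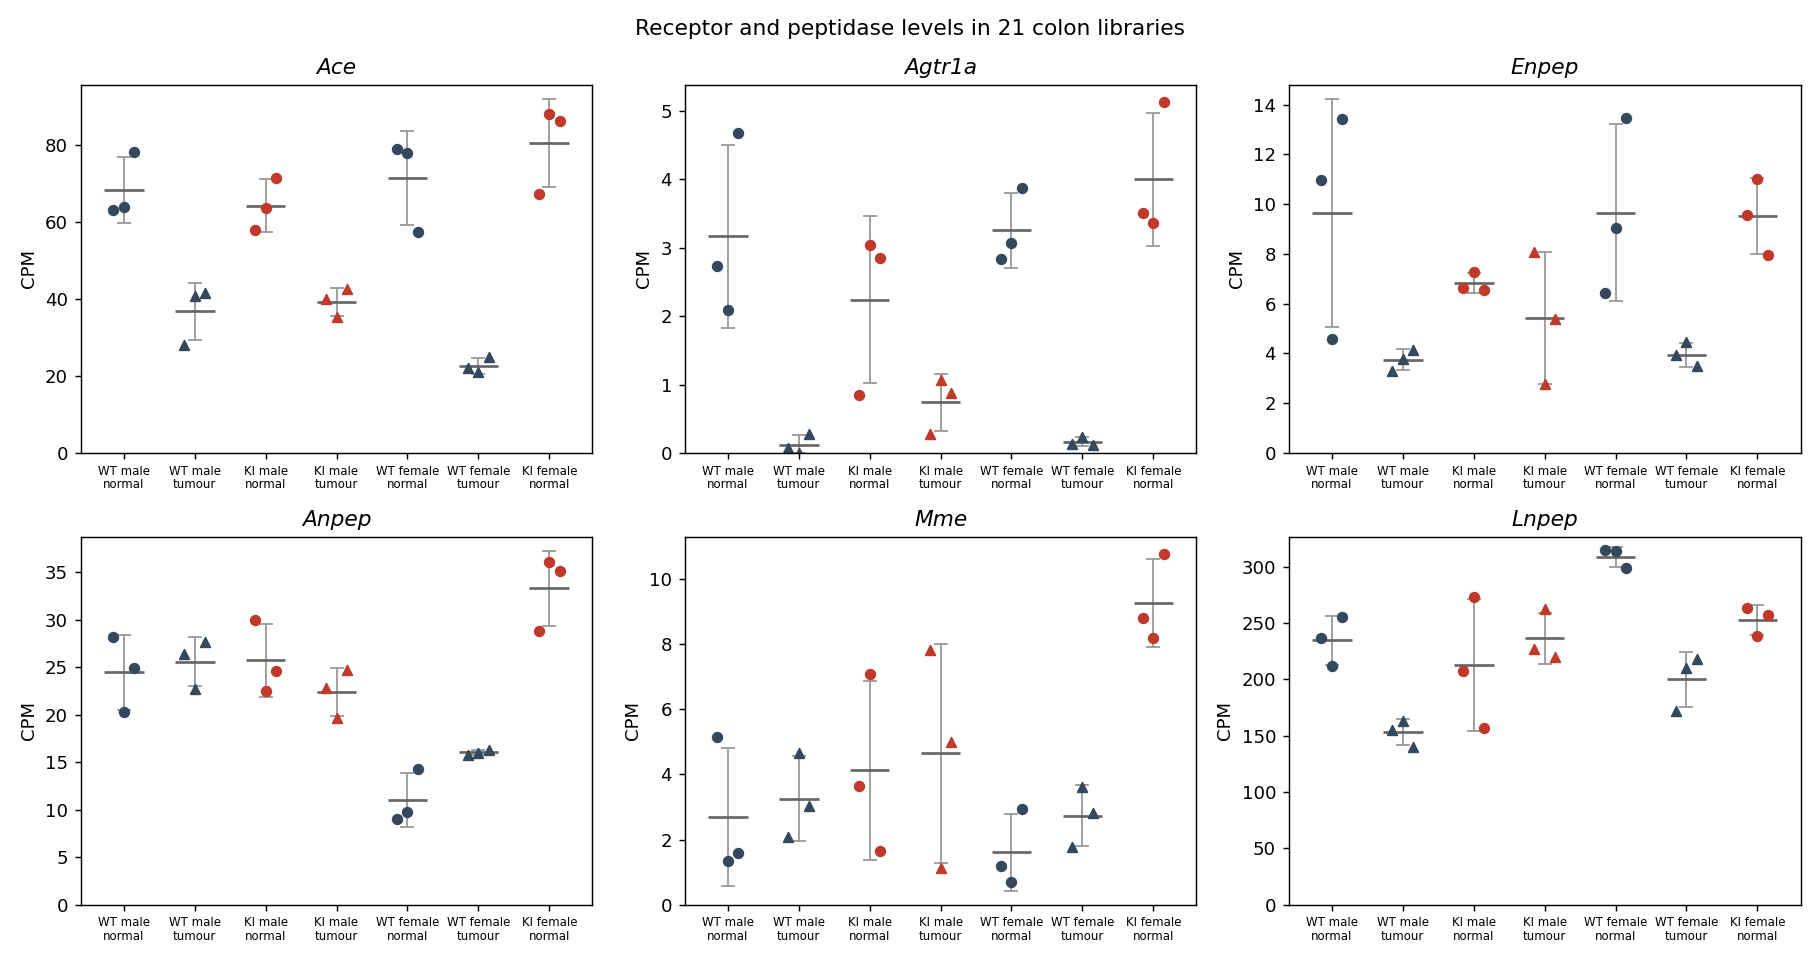
Level in CPM (vertical axes, each from 0) of Ace, Agtr1a, Enpep, Anpep, Mme and Lnpep in 21 libraries, by group, with symbols, lines and SD bars as for Agt. Ace and Agtr1a are low in the tumour groups, Anpep is lowest in wild-type females, and Mme is highest in knock-in female normal colon.

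Tumours held less Ace, Agtr1a, Enpep and Lnpep than normal colon in wild-type mice of both sexes. Of the 6 genes tested, 4 fell in wild-type males, where 19.3% of all genes tested were called lower. In wild-type females the same 4 fell, where 24% of all genes were called lower, and Anpep rose, where 25% were called higher. In knock-in males Ace and Agtr1a fell, 2 of 6 against 9.97% of all genes called lower. Agtr1a entered these tests through its level in normal colon, so the numbers of members called were also taken with no filter on low counts, and they were again 4, 5 and 2. The members' median log2 fold change was -0.76 in wild-type males, -0.95 in wild-type females and -0.27 in knock-in males, beside a median over all genes of 0.01 in each. The male genotype comparisons use the same normal and tumour libraries as these tumour comparisons, so they are not independent of them.

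Ace, the converting enzyme, fell in all 3 backgrounds. Wild-type male normal colon had 63.0, 63.9 and 78.2 CPM and wild-type male tumours had 28.1, 40.7 and 41.4 CPM. In knock-in males the normal libraries had 57.8, 63.5 and 71.4 CPM and the tumours 39.9, 35.4 and 42.5 CPM. Wild-type female normal colon had 78.9, 77.8 and 57.2 CPM and the tumours 22.1, 20.9 and 24.9 CPM. No tumour library reached the level of any normal library. The log2 fold change was -0.90 in wild-type males (SE 0.164, edgeR adjusted p = 0.00042), -0.71 in knock-in males (SE 0.161, edgeR adjusted p = 0.00687) and -1.66 in the females (SE 0.168, edgeR adjusted p = 6.19e-07). The tumour effects of wild-type females and males differed by -0.75 (SE 0.231), which was not past the threshold (edgeR adjusted p = 0.123). Between genotypes in male tumours the log2 difference of Ace was 0.11 (95% interval -0.24 to 0.45).

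Agtr1a, the angiotensin II receptor, nearly vanished from wild-type tumours. Wild-type male normal colon gave 58, 28 and 47 counts (2.74, 2.10 and 4.67 CPM) and wild-type male tumours 1, 0 and 3 counts. Wild-type female normal colon gave 67, 22 and 25 counts (2.83, 3.06 and 3.87 CPM) and the tumours 1, 2 and 1 counts. Summed over the 3 libraries, the normal level was 21.02 times the tumour level in males (95% counting interval 8.02 to 78.3) and 19.2 times in females (95% counting interval 7.29 to 71.6). These intervals cover counting error only. Fitted with no filter on low counts, since normal colon had carried the gene past it, edgeR gave adjusted p values of 0.0001002 in males and 4.18e-05 in females. In knock-in males the normal libraries had 9, 48 and 33 counts (0.840, 3.04 and 2.85 CPM) and the tumours 4, 18 and 9 counts (0.272, 1.06 and 0.880 CPM). There the groups overlapped, and with no filter the log2 fold change was -1.61 and the edgeR adjusted p was 0.0417. With the filter, the call was lost when knock-in male normal replicate 2 (adjusted p = 0.0971) or 3 (adjusted p = 0.115), or knock-in male tumour replicate 1 (adjusted p = 0.101) or 3 (adjusted p = 0.0572), was left out, and with only the compared groups fitted (adjusted p = 0.15). With limma voom the log2 fold change was -0.84, with an adjusted p of 0.36.

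Enpep, which removes the first residue of angiotensin II, fell in wild-type tumours. Its level in wild-type male normal colon was 10.95, 4.56 and 13.4 CPM, and in the tumours 3.31, 3.78 and 4.14 CPM. Female wild-type normal libraries had 6.42, 9.05 and 13.5 CPM and tumours 3.94, 4.44 and 3.48 CPM. Both pairs of groups were apart without overlap, although the lowest male normal library lay close to the tumours. The log2 fold change was -1.36 (SE 0.383, edgeR adjusted p = 0.0101) in males and -1.27 (SE 0.382, edgeR adjusted p = 0.0103) in females. Each call was lost without replicate 3 of the normal group, the library with the highest level (adjusted p = 0.0627 in males and 0.062 in females). Knock-in male normal colon had 6.63, 7.27 and 6.57 CPM and knock-in tumours 8.09, 2.78 and 5.38 CPM, which overlapped (log2 fold change -0.34, 95% interval -1.10 to 0.43). The male tumour effects of the 2 genotypes differed by 1.03, with a 95% interval of -0.08 to 2.13.

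Lnpep, a membrane aminopeptidase of intracellular vesicles, fell in wild-type tumours of both sexes. Wild-type male normal colon had 236, 211 and 255 CPM and the tumours 155, 163 and 140 CPM. Wild-type female normal colon had 314, 313 and 299 CPM and the tumours 172, 210 and 218 CPM. The log2 fold change was -0.62 in males (SE 0.15, edgeR adjusted p = 0.00385) and -0.63 in females (SE 0.149, edgeR adjusted p = 0.0019), with no overlap between groups. Knock-in males had 207, 273 and 157 CPM in normal colon and 227, 262 and 220 CPM in tumours, with a log2 fold change of 0.15 (95% interval -0.16 to 0.46). The male tumour effects of the genotypes differed by 0.77 (SE 0.211), just short of the threshold (edgeR adjusted p = 0.0584).

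In wild-types, Anpep and Mme did not fall past the threshold in tumours as Ace, Enpep and Lnpep did. Anpep was 8.997, 9.75 and 14.2 CPM in wild-type female normal colon and 15.7, 16.01 and 16.3 CPM in the tumours, 0.56 higher in log2 units (SE 0.178, edgeR adjusted p = 0.0136). That call was lost without wild-type female normal replicate 1 (adjusted p = 0.0938) or 2 (adjusted p = 0.0536), with library number 152 and above as a covariate (log2 0.48, adjusted p = 0.0896) and with only the compared groups fitted (adjusted p = 0.0517). Wild-type males had 24.5 ± 3.95 CPM in normal colon and 25.6 ± 2.57 CPM in tumours (SD, n = 3 each). Knock-in males had 25.7 ± 3.84 CPM in normal colon and 22.4 ± 2.51 CPM in tumours (SD, n = 3 each), a log2 fold change of -0.20 that was not past the threshold. Mme varied widely within groups, from 1.12 to 7.82 CPM in knock-in male tumours alone. Its tumour against normal difference was not past the threshold in any of the 3 backgrounds, and the 95% interval in wild-type females ran from -0.68 to 2.36 in log2 units.

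**Figure D3:**
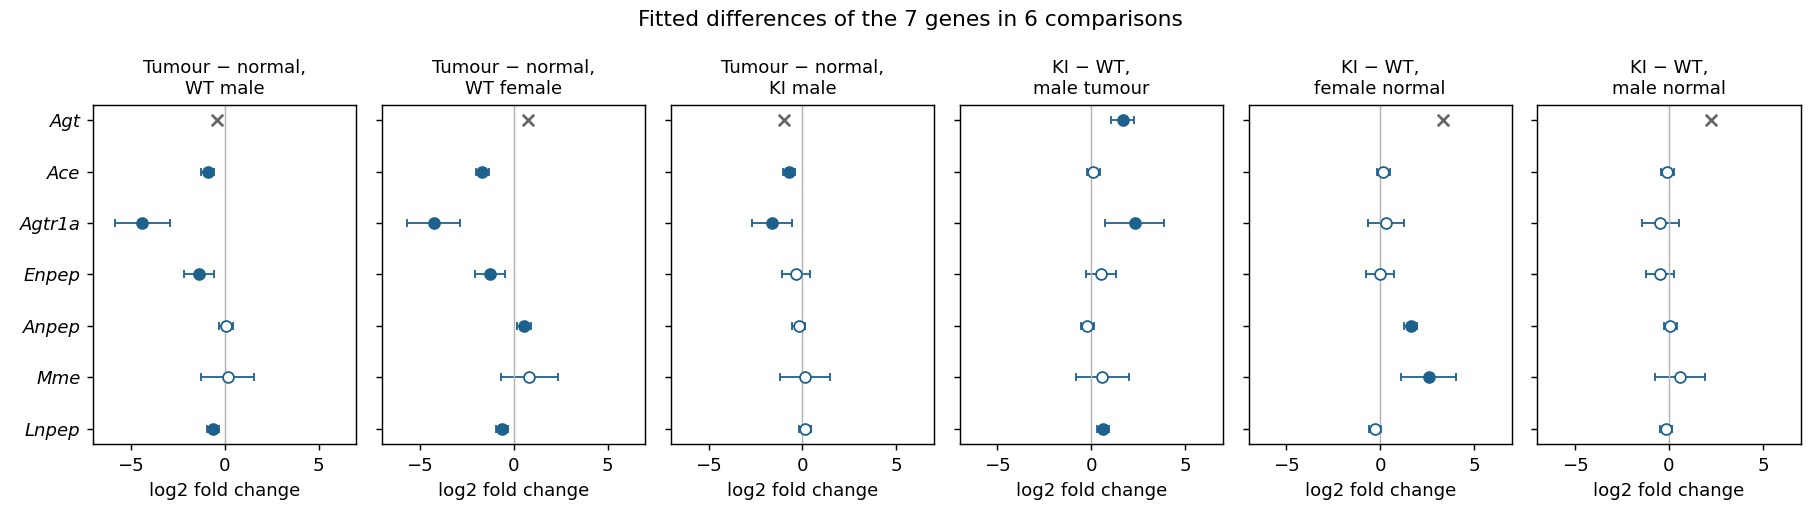
Log2 fold change (horizontal axes) of the 7 genes in 6 comparisons, with knock-in (KI) and wild-type (WT) written short. Bars are 95% intervals of the fit, filled points passed the threshold of 0.05 on the adjusted p, open points did not, and crosses mark Agt where it is a description. Ace and Agtr1a lie below 0 in the 3 tumour comparisons, and Agt, Agtr1a and Lnpep lie above 0 in knock-in against wild-type male tumours.

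Cell type markers moved in the same comparisons. In a bulk tissue, fewer cells of a type and less RNA per cell cannot be told apart. The summed level of 8 smooth muscle markers was 2860 to 9721 CPM in wild-type male normal colon and 192 to 754 CPM in the tumours. In wild-type females it was 1983 to 4590 CPM and 176 to 212 CPM. Knock-in males had 4565 to 8281 CPM in normal colon and 887 to 1005 CPM in tumours, with 8 of 8 markers called lower beside 9.97% of all genes. The 6 colon epithelium markers summed to 7332 to 9785 CPM in wild-type male normal colon and 6138 to 6478 CPM in tumours, and to 9473 to 10249 CPM and 5136 to 6365 CPM in females. In knock-in males these sums overlapped, at 7159 to 7981 CPM and 6558 to 7844 CPM. Not every list fell. The 5 endothelial markers summed to 70.2 to 98.3 CPM in wild-type female normal colon and 140 to 219 CPM in the tumours. There 3 of 5 endothelial, 3 of 6 fibroblast (1 lower) and 3 of 3 neutrophil markers were called higher, beside 25% of all genes. In wild-type and knock-in males the endothelial sums of tumours and normal colon overlapped. Colon markers were found in every group, and small intestine markers summed to at most 5.06 CPM. Over the libraries, Agtr1a was most like the epithelial genes Nlrp6 (r = 0.98), Cryl1 (r = 0.97) and Selenbp1 (r = 0.97). Ace was most like Sdr42e1 (r = 0.96), Tom1l2 (r = 0.96) and Pyroxd2 (r = 0.95). The part of cell makeup in the tumour differences was not tested.

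Agt, Agtr1a and Lnpep were higher in the knock-in group of male tumours, 3 of 7 genes tested, where 9.3% of all genes were called higher. Normal colon had carried Agtr1a into this test. With no filter on low counts the Agtr1a call was lost (log2 2.29, edgeR adjusted p = 0.057). Agtr1a gave 31 counts in the 3 knock-in tumours and 4 in the 3 wild-type tumours, a ratio of 5.22 (95% counting interval 1.85 to 20.4), and 1 knock-in tumour lay within the wild-type range. Its log2 fold change was 2.31 (SE 0.753, edgeR adjusted p = 0.0469), and the call was lost in 11 of 15 alternatives, with adjusted p values up to 0.2. Leaving out either wild-type male tumour replicate 1 (0.2), 2 (0.0959) or 3 (0.0587), or knock-in male tumour replicate 2 (0.19) or 3 (0.0775), each took the adjusted p above 0.05. Without wild-type male tumour replicate 3 the log2 fold change rose to 3.49. With the replicate number as a block the edgeR adjusted p was 0.0517. Lnpep was higher by 0.63 in log2 units (SE 0.15, edgeR adjusted p = 0.014) with all knock-in tumours above all wild-type tumours. Offsets for GC content and transcript length brought it to 0.32 (adjusted p = 0.077). It was also lost without wild-type male tumour replicate 1 (adjusted p = 0.0525) or 3 (adjusted p = 0.0615), or knock-in male tumour replicate 2 (adjusted p = 0.075). Enpep, Anpep, Mme and Ace did not pass the threshold, with log2 fold changes from -0.20 to 0.58. The smooth muscle sum was 887 to 1005 CPM in knock-in against 192 to 754 CPM in wild-type tumours, with 0 of the 8 markers called. The part of smooth muscle in these differences was not tested.

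In normal colon of males, none of the 6 genes tested differed between genotypes by edgeR, and 0 had an unadjusted p under 0.05. Only 2 of all genes tested were called there (0.0126%), and limma voom and DESeq2 also called 0 of the 6. The 95% interval was -0.42 to 0.25 for Ace, -0.28 to 0.42 for Anpep and -0.45 to 0.17 for Lnpep in log2 units. It was wider for Agtr1a (-1.45 to 0.51), Enpep (-1.25 to 0.26) and Mme (-0.77 to 1.94).

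In normal colon of females, Anpep and Mme were higher in knock-ins, 2 of 6 genes tested, where 8.97% of all genes were called higher. Anpep was 28.8 CPM in knock-in replicate 1, 36.1 CPM in a and 35.1 CPM in b, against 8.997, 9.75 and 14.2 CPM in wild-types. Every knock-in library exceeded every wild-type library, and the log2 fold change was 1.62 (SE 0.176, edgeR adjusted p = 2.77e-05). Mme was 8.80, 8.20 and 10.8 CPM in knock-in replicates 1, a and b, against 1.18, 0.696 and 2.94 CPM in wild-types. Its 6.01-fold difference (log2 2.59, SE 0.7, edgeR adjusted p = 0.0191) was not past the threshold without wild-type female normal replicate 1 (adjusted p = 0.0944) or 2 (adjusted p = 0.0948). Mme in knock-in females also lay above every library of the other 6 groups. Ace, Agtr1a, Enpep and Lnpep did not pass the threshold, with 95% intervals of -0.16 to 0.51, -0.66 to 1.29, -0.77 to 0.76 and -0.60 to 0.02.

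The genotype difference of Anpep in normal colon was itself larger in females than in males. Male normal colon had 28.1, 20.3 and 25.0 CPM in wild-types and 29.98, 22.5 and 24.6 CPM in knock-ins. The difference of the 2 genotype effects was 1.55 in log2 units (SE 0.242, edgeR adjusted p = 0.00366), 1 of 6 genes where 1.76% of all genes were called higher. For Mme the same term was 2.004 with a 95% interval of 0.02 to 3.99 and an adjusted p of 0.276. The low group was wild-type female normal colon, which differed from wild-type male normal colon by -1.17 in log2 units (SE 0.175, edgeR adjusted p = 0.000302), 1 of 6 genes where 10.2% were called lower. Knock-in normal females and males gave 0 calls among 6 genes by edgeR (0.584% of all genes), with 1 at an unadjusted p under 0.05, 1 called by limma voom and 0 by DESeq2. Wild-type tumours of females and males gave 0 calls among 7 genes by edgeR (0.86% of all genes). Of these, 3 had an unadjusted p under 0.05, DESeq2 called 2 and limma voom 3. Ace (log2 -0.69, edgeR adjusted p = 0.0531) and Anpep (log2 -0.68, edgeR adjusted p = 0.0568) were nearest to the threshold, both lower in all female tumours.

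Fibroblast and endothelial marker sums were lowest in wild-type female normal colon, as Anpep was, and muscle and mesothelium markers differed as well. The summed level of 6 fibroblast markers was 1030 to 1243 CPM in wild-type female normal colon, 1957 to 2418 CPM in knock-in female normal colon and 2098 to 2353 CPM in wild-type male normal colon. The 5 endothelial markers summed to 70.2 to 98.3 CPM, 164 to 180 CPM and 141 to 241 CPM in the same groups. Knock-in male normal colon had fibroblast sums of 1963 to 3090 CPM, endothelial sums of 166 to 234 CPM and mean Anpep of 25.7 CPM. Mean Anpep was highest in knock-in female normal colon (33.3 CPM), whose fibroblast and endothelial sums were not the highest. Wild-type female tumours had fibroblast sums of 1500 to 2450 CPM and Anpep of 15.7 to 16.3 CPM. Knock-in male tumours had fibroblast sums of 2454 to 3514 CPM and Anpep of 19.7 to 24.6 CPM. The smooth muscle sum was 6874 to 9716 CPM in knock-in and 1983 to 4590 CPM in wild-type female normal colon. There 3 of 8 markers were called higher, beside 8.97% of all genes. All 4 mesothelium markers were called lower in knock-in females (median log2 -4.74), where 7% of all genes were called lower. Their sums were 1.24 to 2.50 CPM against 2.17 to 27.4 CPM, which overlapped. The genes most like Anpep over the libraries were Axl, a receptor tyrosine kinase (r = 0.93), Timp2, a metalloprotease inhibitor (r = 0.92), and Nfic, a transcription factor (r = 0.92). For Mme they were Draxin (r = 0.75), Cd84 (r = 0.75) and Gimap6 (r = 0.73), the last 2 known from blood cells. The sum of 3 B cell markers was 25.0 to 54.6 CPM in knock-in and 5.15 to 27.7 CPM in wild-type female normal colon. These sums overlapped, and 0 of the 3 markers were called. The part of these markers in the Anpep and Mme differences was not tested.

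**Figure D4:**
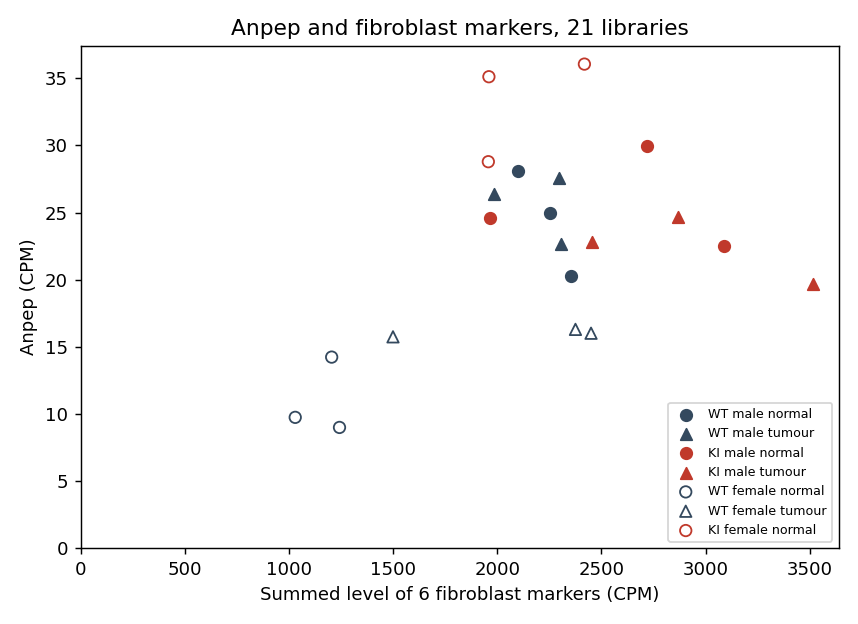
Anpep level (vertical axis, CPM) against the summed level of 6 fibroblast markers (horizontal axis, CPM) in 21 libraries. Filled symbols are males, open symbols females, circles normal colon, triangles tumours, red knock-in (KI) and blue-grey wild-type (WT). The 3 wild-type female normal libraries have the lowest fibroblast sums, at most 1243 CPM, and the lowest Anpep, at most 14.2 CPM.

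The other interaction terms gave 0 calls among 6 genes by edgeR. For the tumour effect in males between genotypes (1.51% of all genes called), 2 genes had an unadjusted p under 0.05, DESeq2 called 1 and limma voom 2. Agtr1a was one of them, with a difference of 2.77 (95% interval 0.91 to 4.64, edgeR adjusted p = 0.0817), and Lnpep was the other. For the tumour effect in wild-types between sexes (1.12% of all genes called), 1 gene had an unadjusted p under 0.05, DESeq2 called 0 and limma voom 1. The patterns of Enpep and Lnpep across libraries were most like those of March2 (r = 0.90), Ppp1r12a (r = 0.89) and Ceacam18 (r = 0.87) for Enpep, and of Akap11 (r = 0.98), Ptp4a2 (r = 0.97) and Pvrl3 (r = 0.97) for Lnpep.

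The rest of the renin-angiotensin system was read from 19 further genes, of which 15 passed the filter. Renin itself (Ren1) and cathepsin G (Ctsg), another enzyme able to release angiotensin, had 0 counts in all 21 libraries, which allows between 0.127 and 0.872 CPM per library at 3 counts. Agtr2, a second angiotensin receptor, had at most 0.774 CPM in any library, and Tmem27, collectrin, at most 0.271 CPM. Of the 15 tested, 4 rose and 5 fell in wild-type male tumours, 6 rose and 4 fell in wild-type female tumours, and 3 rose and 2 fell in knock-in male tumours. Of all genes tested, 16.5% were called higher and 19.3% lower in the first comparison, 25% and 24% in the second, and 10.4% and 9.97% in the third. The medians of the 15 were -0.23, 0.34 and 0.09 in log2 units in that order.

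**Figure D5:**
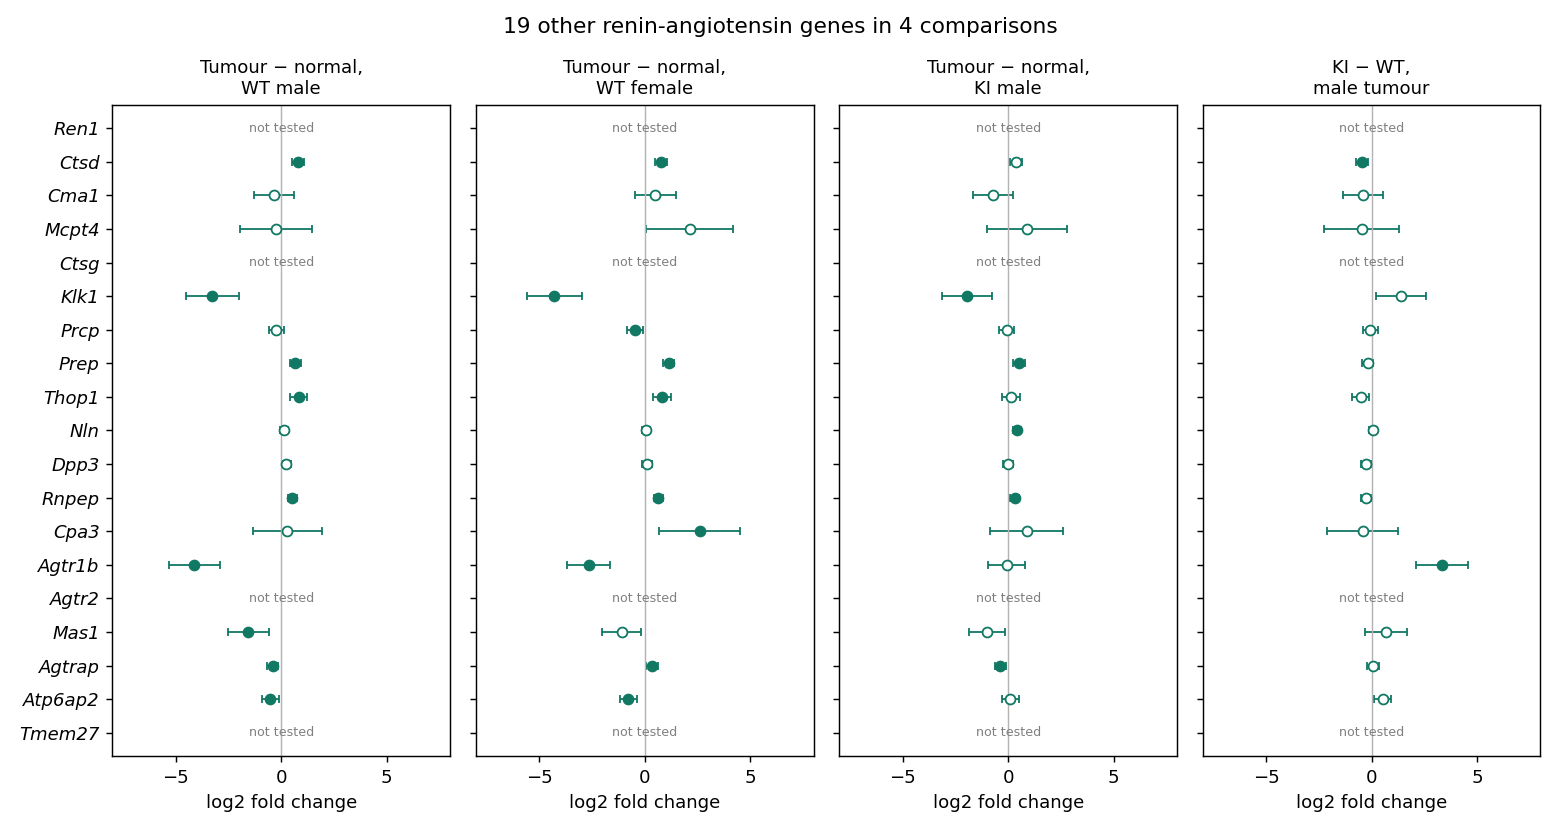
Log2 fold change (horizontal axes) of 19 other renin-angiotensin genes in 4 comparisons, with 95% intervals. Filled points passed the threshold of 0.05 on the adjusted p and open points did not. Agtr1b and Klk1 lie below 0 in wild-type tumours, and Agtr1b lies above 0 in knock-in against wild-type male tumours.

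Agtr1b, Klk1 and Atp6ap2 were lower in wild-type tumours of both sexes. Agtr1b, a close copy of Agtr1a, was 3.30 ± 0.743 and 0.2 ± 0.1 CPM in males and 4.32 ± 0.712 and 0.652 ± 0.517 CPM in females (SD, n = 3 each). Its log2 fold changes were -4.12 (edgeR adjusted p = 5.10e-05) and -2.66 (edgeR adjusted p = 0.000156). Klk1, tissue kallikrein of the opposing kinin system, fell in all 3 backgrounds, by log2 changes of -3.28, -4.28 and -1.96 in wild-type males, wild-type females and knock-in males. Mas1, a receptor for a shortened angiotensin, fell in wild-type males (log2 -1.56, edgeR adjusted p = 0.0128). Atp6ap2, the prorenin receptor, fell in wild-type males (log2 -0.53) and females (log2 -0.78).

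Prep, Rnpep, Thop1 and Ctsd were higher in wild-type tumours of both sexes. Klk1 aside, the other peptidases of the list were called in 1 comparison of tumour with normal at most. Prep, a prolyl endopeptidase, rose in wild-type male, wild-type female and knock-in male tumours, with log2 fold changes of 0.67, 1.13 and 0.50. Rnpep, aminopeptidase B, rose by 0.53, 0.65 and 0.30 in the same order. Thop1, an endopeptidase, rose in wild-type males (0.82) and females (0.83), as did Ctsd, a lysosomal aspartic protease (0.81 and 0.78). Nln, neurolysin, rose in knock-in males (0.41), and Cpa3, a mast cell carboxypeptidase, rose in wild-type females (2.61). Prcp, a lysosomal carboxypeptidase, fell in wild-type females (-0.47). Agtrap, which binds the angiotensin II receptor, fell in wild-type male (-0.40) and knock-in male (-0.37) tumours and rose in wild-type female tumours (0.34).

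In male tumours, Agtr1b was higher in knock-ins and Ctsd was lower, 1 each of 15 where 9.3% of all genes were called higher and 5.23% lower. Agtr1b was 1.86 ± 0.696 CPM in knock-in and 0.2 ± 0.1 CPM in wild-type tumours, with no overlap and 3.33 in log2 units (SE 0.595, edgeR adjusted p = 0.00422). Ctsd was 346 ± 54.0 and 475 ± 24.4 CPM (log2 -0.46, edgeR adjusted p = 0.0331). The call was lost when any 1 of 5 of the 6 tumour libraries was left out, the exception being knock-in male tumour replicate 1, with adjusted p values from 0.0638 to 0.132 for those 5. In normal colon no other gene of the list passed the threshold between genotypes in males, and in females Agtrap alone did (log2 0.67, edgeR adjusted p = 0.00237). Between the sexes, Agtrap (-0.53) and Prep (-0.42) were lower in normal colon of wild-type females than of wild-type males. Cma1 and Mcpt4, mast cell chymases, and Dpp3 passed the threshold in no comparison.

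Peptidases related by family or place were counted for comparison. Of 6 brush border peptidases tested, 5 fell in wild-type male and 5 in wild-type female tumours, led by Mep1a, a meprin subunit (log2 -3.13 and -3.76), and Naaladl1 (log2 -2.75 and -3.74), where 19.3% and 24% of all genes were called lower. In knock-in male tumours 3 of the 6 fell, where 9.97% of all genes did, led by Naaladl1 (log2 -1.70) and Mep1a (log2 -1.22). In male tumours, Dpp4, a dipeptidyl peptidase, was higher in knock-ins by 1.10 in log2 units (edgeR adjusted p = 0.0103). Mep1b, the other meprin subunit, was higher by 1.06 (edgeR adjusted p = 0.0443), a call lost in 13 of 17 alternatives. Dpp4 was also higher in wild-type females than in wild-type males, in normal colon (log2 0.92) and in tumours (log2 1.26), and Naaladl1 was higher in knock-in normal females than in males (log2 1.87).

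The 12 listed relatives of these enzymes in the M1 and M13 zinc peptidase families that were in the table included 8 that passed the filter. In wild-type male tumours 0 rose and 1 fell, Erap1 (log2 -0.59), an aminopeptidase that trims antigens. In wild-type female tumours, with Kel set aside, Lta4h, a leukotriene hydrolase, rose by 0.54 and Ece2, an endothelin-converting enzyme, by 0.66. Erap1 (-0.45) and Rnpepl1 (-0.36) fell there, where 25% of all genes were called higher and 24% lower. Kel, a blood group peptidase, gave 11, 9 and 14 counts in these tumours and 0 in the 3 normal libraries. It could not pass the filter on low counts through those normal libraries, so its rise is a description of these counts. In knock-in male tumours Npepps (0.41) and Lta4h (0.33) rose and Rnpepl1 (-0.36) fell. Among male tumours, Erap1 was higher in the knock-ins (log2 0.69, edgeR adjusted p = 0.017, lost without wild-type male tumour replicate 1 or 3 or knock-in male tumour replicate 2), and Ece1, another endothelin-converting enzyme, was higher in female normal colon of knock-ins (log2 0.50) and lower in normal colon of wild-type females than of wild-type males (-0.41). With GC and length offsets both Ece1 calls were lost, at log2 0.26 (adjusted p = 0.167) and -0.17 (adjusted p = 0.382).

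Of the 60 calls of these further genes, 30 were lost when some single library was left out. The 60 include Kel in wild-type female tumours, whose rise is a description only. In wild-type male tumours these were Agtrap, Atp6ap2, Mas1 and Xpnpep2, a brush border aminopeptidase. In wild-type female tumours they were Agtrap, Cpa3, Prcp, Ece2, Erap1, Rnpepl1 and Xpnpep2. In knock-in male tumours Agtrap, Klk1, Prep, Rnpep, Lta4h, Npepps, Rnpepl1, Mep1a and Naaladl1 were lost in this way, so Nln and Dpp4 held there with every library left out in turn. Between genotypes in male tumours Ctsd, Erap1 and Mep1b were lost and Agtr1b and Dpp4 held. Between the sexes Agtrap, Prep, Ece1 and Dpp4 in wild-types and Naaladl1 in knock-ins were lost. The falls of Agtr1b and Klk1 and the rises of Ctsd, Prep, Thop1 and Rnpep in wild-type tumours of both sexes held. Under some alternative that kept every library, 30 of the 60 calls were also lost. With GC and length offsets alone, 11 calls were lost. Among them were Agtrap in knock-in male and wild-type female tumours, and Lta4h and Rnpepl1 in knock-in male tumours. Others were Ctsd and Mep1b between genotypes in male tumours, and Dpp4 between the sexes in wild-type tumours.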

How the data were processed

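RNA was depleted of ribosomal RNA and primed with random hexamers, per the labels' protocols. The submitters' processing notes name Trimmomatic, HISAT2, featureCounts, DESeq2 and the build mm10, with no versions. The authors deposited raw counts per gene and, in a separate table, their own DESeq2 log2 fold changes and adjusted p-values for 5 comparisons. The annotation, strand setting and treatment of reads that map to several places are not given in the sources used here. From the deposited counts, edgeR 4.0.16 (R 4.3.3) fitted all 21 libraries with 1 coefficient per group, TMM scaling, a filter by group on low counts and robust quasi-likelihood tests. The p-values were two-sided and adjusted by Benjamini-Hochberg over 15936 genes, at a threshold of 0.05, for 9 pairs of groups and 3 interactions. The fit was tested on simulated data. Log2 CPM for likeness used a prior count of 2 and genes with a mean of at least 1 CPM.

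The 7 genes and the lists were chosen with earlier results of these data known. All 7 genes are named throughout, other renin-angiotensin genes where past the threshold, and of the 2 other lists up to 2 largest changes each way. Likeness names the 5 nearest genes of Agt and 3 of each other gene, and 1 gene of the lists is not reported here. Groups came from the labels, and 2 knock-in female normal columns that share a name were used without a number. Same-numbered libraries deviated together in all 3 pairs only for wild-type male tumour against normal (r = 0.169, 0.174 and 0.215), with no pairing stated in the labels. With the block, that comparison again called 4 of 6 genes. Alternatives were DESeq2 1.42.0, limma 3.58.1 voom with quality weights, other scalings and filters, offsets for GC and length, library number 152 and above as a covariate, a replicate block, only the compared groups, and leaving out each library.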

Additional observations from a re-analysis of the deposited data

Results flagged for a closer look

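The genotype difference of Anpep in normal colon differed between the sexes by 1.55 in log2 units (SE 0.242, edgeR adjusted p = 0.00366), being larger in females. It stayed past the threshold in all 21 alternatives run, with adjusted p values up to 0.0192. For Agtr1b, the tumour difference in males differed between genotypes by 4.05 in log2 units (SE 0.728, edgeR adjusted p = 0.0406). Agtr1b gave 139 counts in wild-type male normal colon and 5 in the tumours, against 79 and 82 in knock-ins. That term was not past the threshold in 12 of 22 alternatives, with adjusted p values from 0.0013 to 0.128 over all of them. It was lost without wild-type male normal replicate 3, any of the 3 wild-type male tumour replicates, knock-in male normal replicate 1 or 3, or knock-in male tumour replicate 2.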

How the results depend on the processing

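None of the 95 fitted log2 fold changes reversed in 1609 recomputations, and in 217 recomputations a call was lost. Those 95 were the Agt differences between pairs of groups and the differences past the threshold in at least 1 setting. Weak differences, which could change sign more easily, were therefore mostly left out of this count. The number of members called was 4 for wild-type male tumour against normal and stayed within 1.5 times of its first value there, in wild-type female tumour against normal, in male normal colon between genotypes and in the Anpep interaction. For knock-in male tumour against normal it went from 2 to 1 with a mean of at least 50 counts, which drops Agtr1a, with limma voom and with only the compared groups, and ranged from 1 to 2 when 1 library was left out. For male tumours between genotypes it went from 3 to 1 with GC and length offsets, alone or with the replicate block, and ranged from 1 to 3 with 1 library left out. For female normal colon between genotypes it ranged from 1 to 2 with 1 library left out. For wild-type normal females against males limma voom gave 2. For wild-type tumours of females against males, counts went from 0 to 1 with library totals, 2 with a mean of at least 50 counts, 2 with DESeq2, 3 with limma voom and 2 with only the compared groups, and 0 to 1 with 1 library left out. For knock-in normal females against males limma voom gave 1, and leaving out 1 library 0 to 1. The male tumour by genotype interaction gave 1 with DESeq2, 2 with limma voom and 0 to 2 with 1 library left out, and the wild-type tumour by sex interaction gave 1 with limma voom. The cause was not tested for these moves except where named. The replicate block, fitted on 18 numbered libraries, called 2 members instead of 3 in male tumours between genotypes, where Agtr1a had an adjusted p of 0.0517, and changed no other count of members. It could not be fitted for comparisons with knock-in female normal colon. Library totals in place of TMM moved the median of all genes to 0.15 in wild-type female tumours against normal, 0.10 in female normal colon between genotypes and 0.13 in the wild-type tumour by sex interaction. Depth limits Agtr1a most, with 0 to 3 counts per wild-type tumour library.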
